A study of Mus musculus with 12 samples.

Results

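The change in messenger RNA of the mouse prefrontal cortex across the dark phase was measured by setting the 3 arrays of ZT21 against the 3 arrays of ZT15, which are 6 of the 12 arrays in the series. All 12 arrays came from C57BL/6J mice kept in a cycle of equal light and dark, with 1 mouse behind each array and 3 mice at each time. ZT21 mice were killed 9 h after lights off and ZT15 mice 3 h after lights off, both under red light, while the remaining mice were taken in the light at ZT3 and ZT9. The sample titles give the time and a replicate number, the study gives the strain and the tissue, and no treatment or altered allele is named for any group. The sex of the animals is not given in the sources used here, and the times stand for hours of the light cycle and not for measured sleep or wakefulness.

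Mice are nocturnal, so ZT15 falls early and ZT21 late in the phase in which they are most active. Neurons that have been active transcribe immediate early genes, then longer-lived effectors such as synaptic scaffolds. The molecular clock runs beside this in nearly every cell: CLOCK and ARNTL switch on the Period and Cryptochrome genes, whose proteins then repress them. Another system is the unfolded protein response, in which sensors of the endoplasmic reticulum (ER) raise the genes of its own chaperones when the load of new proteins exceeds what the compartment can fold.

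Expression was read on Affymetrix Mouse430_v2 arrays as GCRMA intensity for each probe set, a group of short probes against 1 transcript, and is given here as log2. Of 45037 probe sets that are not array controls, 24075 had a mean log2 intensity of at least 5 over the 12 arrays and were tested with limma. The Benjamini-Hochberg adjustment covered all tested probe sets, and a probe set was called at an adjusted p under 0.20, at which up to that share of the calls is expected to be false. Across probe sets, arrays correlated with each other at 0.982 to 0.990 between the dark-phase times and at 0.989 to 0.993 within ZT21 and 0.982 to 0.994 within ZT15. All 13 listed genes for cortical excitatory neurons on the array were measured, with a summed intensity of 19140 to 21960 at ZT21 and 21040 to 21370 at ZT15. So were 8 of 11 striatal markers, with sums of 2400 to 3141 at ZT21 and 2823 to 3275 at ZT15. These lists cannot tell the prefrontal cortex from other cortex, and the dissection was not tested.

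Late in the dark phase 26 probe sets were lower and 19 higher than early in it. The 45 calls are 0.187% of those tested (lower 0.108%, higher 0.0789%), and 3 passed an adjusted p of 0.05 (0.0125%). Of these calls 42 carry a single gene symbol and stand for 37 genes, 22 lower and 15 higher. The lower genes were led by chaperones of the ER, the clock gene Per2, the synaptic scaffold gene Homer1 and the kinase gene Camk1g, and the largest differences among the higher ones were those of Alb, Car3 and Serpina1c. The ZT21 and ZT15 arrays did not overlap in any of the 45, as they also did not in 6.46% of all probe sets with ZT21 lower and in 5.89% with ZT21 higher. Differences ran between 0.49 and 1.38 log2 units among the lower calls and between 0.47 and 2.54 among the higher ones, against a median absolute difference of 0.12 over all probe sets.

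**Figure D1:**
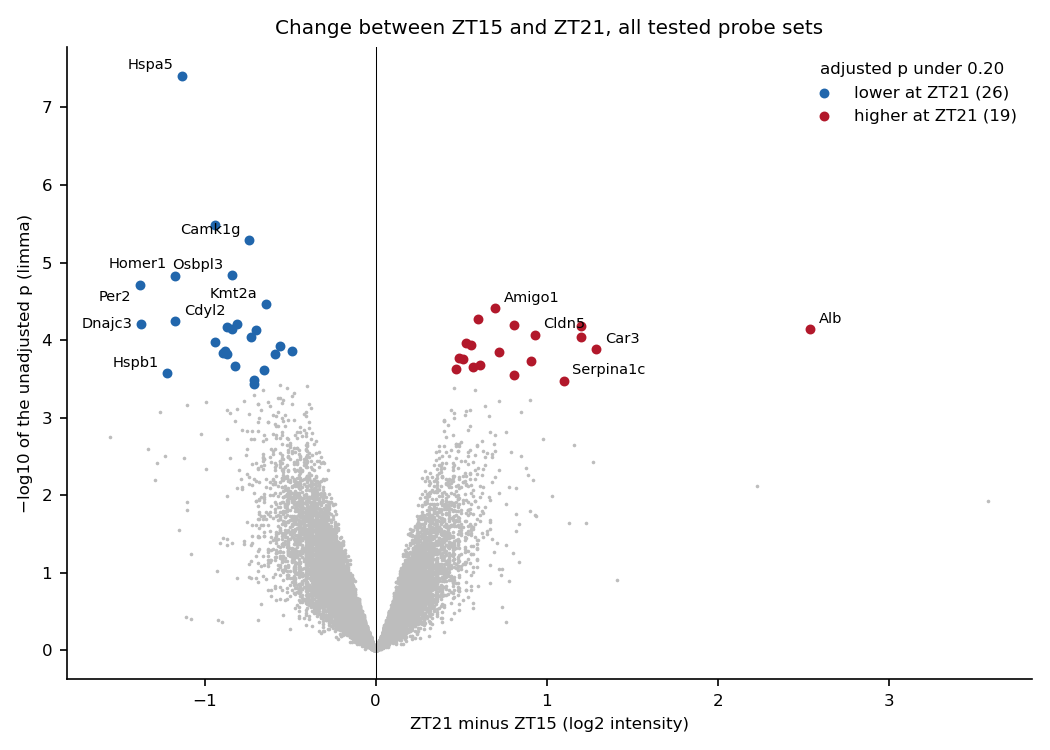
Each point is 1 of 24075 probe sets, with the difference ZT21 minus ZT15 in log2 intensity across and the −log10 of limma's unadjusted p upward; blue and red mark the 26 lower and 19 higher calls. Hspa5 stands apart at the top left and Alb at the far right among the calls.

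At an unadjusted p under 0.05 the count was 2353, of which 1558 were lower and 795 higher. This split depended on scaling, since quantile normalization gave 1466 lower and 1466 higher and centring each array on its median gave 1437 lower and 1306 higher. The number of calls also rested on single arrays. It was 15 without ZT15 replicate 1, 4 without ZT15 replicate 2, 193 without ZT15 replicate 3, 6 without ZT21 replicate 1, 6 without ZT21 replicate 2 and 1933 without ZT21 replicate 3. It was also 24 without ZT3 replicate 1, 24 without ZT3 replicate 2 and 253 without ZT9 replicate 1, arrays that enter only through the shared estimate of the spread. Each of the 45 differences kept its sign in every one of the 21 alternative analyses that tested it, and 13 of them were too dim for the analysis limited to a mean log2 of at least 7. The 2 called probe sets of Hspa5 and that of Camk1g were called in all 12 analyses that left out 1 array. When only the 6 compared arrays were fitted, 1416064_a_at of Hspa5 and Camk1g lost the call (limma adjusted p = 0.235 for each), so that 1427464_s_at of Hspa5 was the only one called in all 21. Of the 45, those still called without ZT15 replicate 2 were these and 1430013_at, which carries no single gene symbol, without ZT21 replicate 1 these, Alb and Car3, and without ZT21 replicate 2 these, Homer1 and Per2. Apart from Hspa5 and Camk1g, every named gene called here therefore lost its call without ZT15 replicate 2.

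Genes that fold or process proteins in the ER were the largest group among those that fell. Hspa5 encodes BiP, the main HSP70 chaperone of the ER and the keeper of the stress sensors in their resting state. Its probe set with the smallest p, 1427464_s_at, read 10.70, 10.63 and 10.80 at ZT21, against 11.84, 11.87 and 11.83 at ZT15. Each ZT21 mouse was more than 1 log2 unit below each ZT15 mouse, and the spread within a time was far smaller than the gap. Hspa5 fell by 1.13 (SE 0.09, limma adjusted p = 0.000941), so that the level at ZT15 was 2.20 times that at ZT21. The brighter probe set 1416064_a_at read 11.55, 11.47 and 11.75 at ZT21, against 12.48, 12.44 and 12.69 at ZT15 (difference −0.94, SE 0.11, limma adjusted p = 0.0401). The remaining one, 1447824_x_at, overlapped between the times (difference −0.13, SE 0.10).

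Pdia6, a protein disulfide isomerase that also attenuates the IRE1 branch of the stress response, read 9.35, 9.56 and 9.62 at ZT21, against 10.36, 10.38 and 10.41 at ZT15. The ZT15 mice were nearly identical and all above every ZT21 mouse, and Pdia6 fell by 0.87 (SE 0.15, limma adjusted p = 0.0991). Creld2, a secreted ER-resident protein induced by stress, read 7.38, 7.48 and 7.39 at ZT21, against 8.03, 8.62 and 8.28 at ZT15, a fall of 0.89 (SE 0.16, limma adjusted p = 0.114). Dnajb11, a co-chaperone of BiP that binds unfolded clients in the lumen, fell by 0.56 (SE 0.10, limma adjusted p = 0.114). Dnajc3, a co-chaperone known as an inhibitor of the eIF2alpha kinases, had a negative difference in each of its 5 tested probe sets. The largest difference came from a dim one, 1449373_at, which read 5.13, 5.03 and 5.59 at ZT21, against 6.50, 6.95 and 6.39 at ZT15 (difference −1.37, SE 0.23, limma adjusted p = 0.0991). A second, 1419163_s_at, was also called with a difference of −0.59, and the brightest, 1433887_at, was not (difference −0.58, adjusted p = 0.340). Herpud1, which brings misfolded proteins to the ER-associated degradation complex, fell by 0.65 in 1448185_at (SE 0.13, limma adjusted p = 0.147), and its brightest probe set was not called (difference −0.35). P4ha1, the catalytic subunit of the prolyl hydroxylase that modifies collagen in the ER, read 7.70, 8.32 and 8.29 at ZT21, against 8.90, 9.11 and 9.12 at ZT15, a fall of 0.94 (SE 0.16, limma adjusted p = 0.114).

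Of 21 listed ER chaperones and folding enzymes, each taken by its brightest probe set, 4 fell and 0 rose, while 24 of 11639 genes were called in all (0.206%). At an unadjusted p under 0.05, 9 were lower and 0 higher, beside 5.22% of all genes lower and 4.34% higher, and 6 to 12 were lower when 1 of the 6 arrays was left out, fewest without ZT21 replicate 1. Sdf2l1, counted among the 9, passed the brightness filter through its ZT15 mean of 5.82, against 4.40 to 5.14 at the other times. The count of 4 calls was 1 without ZT15 replicate 2, without ZT21 replicate 1 or without ZT21 replicate 2, 2 without ZT15 replicate 1 and 8 without ZT21 replicate 3. The median difference of the list was −0.20 (−0.15 after quantile normalization and −0.17 after centring), beside −0.002 over all genes. Not all members moved alike: Manf, a neurotrophic ER factor, had a difference of −0.75 and Hsp90b1, the HSP90 of the ER, one of −0.28, neither called, while the brightest probe set of Hyou1, a chaperone of the HSP110 family, differed by −0.03 and its other one by 0.36 (SE 0.28). Of 22 genes of the stress sensors and of ER-associated degradation, 0 were called by their brightest probe set, and 5 were lower and 1 higher at an unadjusted p under 0.05 (3 lower without ZT15 replicate 1). Xbp1, the transcription factor spliced by IRE1, differed by −0.53 (SE 0.16), Atf6, a cleaved sensor, by −0.43 (SE 0.15), and Derl2, part of the retrotranslocation channel, by −0.40 (SE 0.10). Ddit3 and Atf4, of the branch that halts translation, differed by −0.07 and −0.06. The median of this list was −0.05, and it turned to 0.03 without ZT15 replicate 3.

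Promoters of these genes were read to see whether they share a sequence feature that the comparison of intensities did not use. Upstream sequence came from RefSeq, build GRCm38.p6, in windows of 250 bases before to 50 bases after the start, and 9412 of the 11639 tested genes were matched to one, among them 18 of the 22 lower and 10 of the 15 higher genes. The ER stress element, read by ATF6 together with NF-Y, was searched on both strands as CCAAT and CCACG with any 9 bases between them. It stood in the window of 4 of the 18 lower genes, 0 of the 10 higher genes and 13 of the 9412 genes (0.138%; 39 of all 32851 promoters in the table, 0.119%). The 4 genes were Hspa5, Pdia6, Dnajc3 and Creld2, whose first 250 bases of the window are printed here, 5′ to 3′ on the plus strand, because they carry the match; capitals mark it. They lie at chr2:34771840-34772089, chr12:17266339-17266588, chr14:118937682-118937931 and chr15:88819396-88819645.
Hspa5: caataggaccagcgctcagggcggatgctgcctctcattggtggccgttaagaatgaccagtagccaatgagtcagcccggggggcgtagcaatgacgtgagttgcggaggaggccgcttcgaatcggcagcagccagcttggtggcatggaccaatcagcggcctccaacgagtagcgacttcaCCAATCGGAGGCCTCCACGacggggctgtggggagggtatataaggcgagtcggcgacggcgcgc
Pdia6: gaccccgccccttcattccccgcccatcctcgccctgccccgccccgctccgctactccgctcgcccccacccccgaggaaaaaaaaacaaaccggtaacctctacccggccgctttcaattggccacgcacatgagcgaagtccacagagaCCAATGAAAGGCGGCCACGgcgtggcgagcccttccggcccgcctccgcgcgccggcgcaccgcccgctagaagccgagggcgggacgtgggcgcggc
Dnajc3: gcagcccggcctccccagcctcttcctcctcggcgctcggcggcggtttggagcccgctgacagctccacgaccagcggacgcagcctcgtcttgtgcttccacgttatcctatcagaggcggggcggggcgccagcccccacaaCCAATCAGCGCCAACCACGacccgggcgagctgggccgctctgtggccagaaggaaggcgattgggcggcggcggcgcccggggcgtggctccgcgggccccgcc
Creld2: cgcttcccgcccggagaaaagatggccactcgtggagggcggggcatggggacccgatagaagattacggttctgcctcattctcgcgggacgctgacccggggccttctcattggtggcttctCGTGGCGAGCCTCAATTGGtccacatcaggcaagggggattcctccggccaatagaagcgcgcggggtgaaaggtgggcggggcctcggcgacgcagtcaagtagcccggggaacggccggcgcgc
The match begins 65 bases before the start in Hspa5, 98 in Pdia6 and 105 in Dnajc3, and 126 in Creld2, where it lies on the opposite strand and so reads in reverse complement. Among all 13 genes with a match, 11 had a negative and 2 a positive difference and 5 were lower at an unadjusted p under 0.05, with a median of −0.16. These values include the 4 genes above, which the same comparison of intensities chose. Apart from those 4, only Hsp90b1 was lower at that p. Hsp90b1, Calr and Canx, which carry the match too, differed by −0.28, −0.16 and −0.09. The other motifs gave the following shares. The E-box CACGTG, read by CLOCK and ARNTL, was found in 1 of 18 lower genes, 1 of 10 higher genes and 11.7% of all, the cAMP response element TGACGTCA in 0, 0 and 3.61%, and its core TGACGT, which the longer element contains, in 5, 2 and 13.2%. The heat shock element GAANNTTC was in 2, 0 and 6.99%, its other phase TTCNNGAA in 1, 0 and 8.18%, and the D-box TTATGTAA in 0, 1 and 0.722%. The 1 higher gene with a D-box was Alb, whose promoter is the source of that element's name. The UPR element TGACGTGG was in 0, 0 and 1.07%, the sterol element TCACCCCAC in 0, 0 and 0.722%, and a full glucocorticoid element in 0, 0 and 0.0106%. A match describes letters only.

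**Figure D2:**
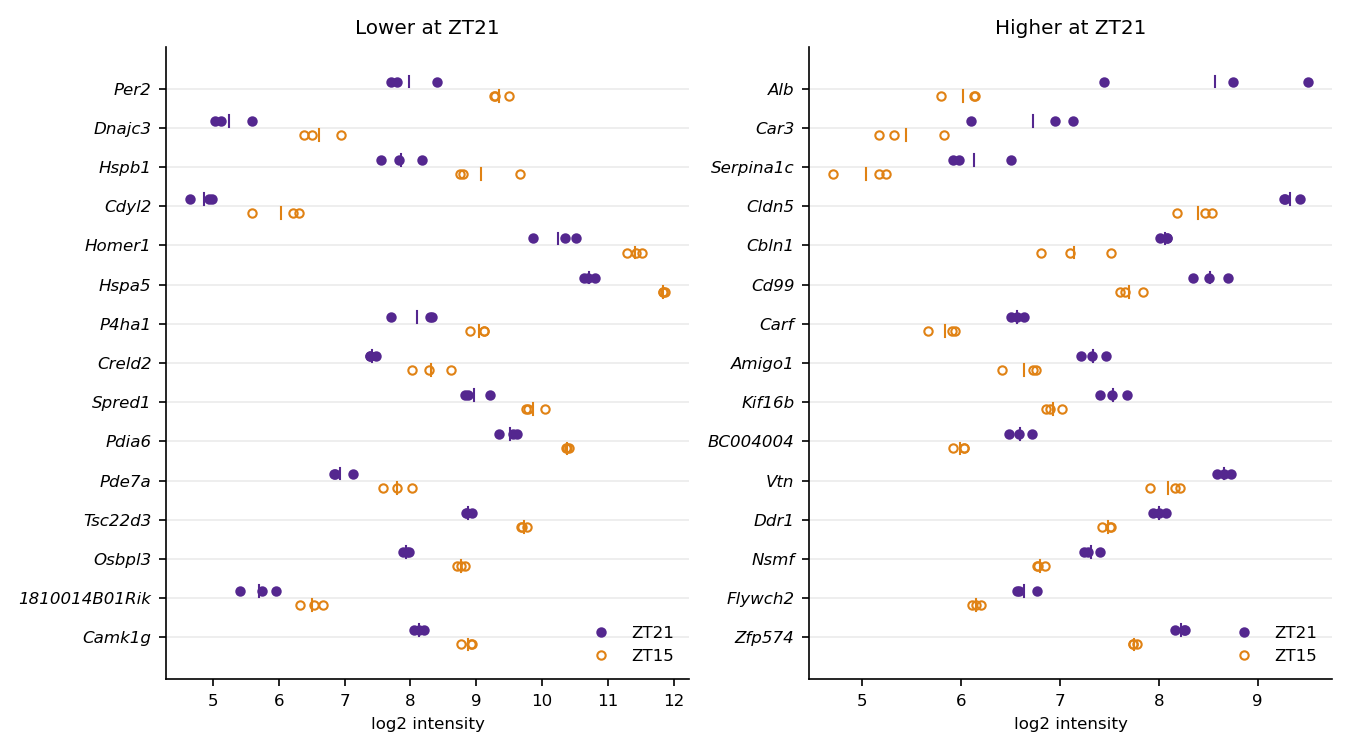
The 15 lower genes (left) and 15 higher genes (right) with the largest called differences; each point is 1 mouse, on a log2 intensity axis, filled for ZT21 and open for ZT15, and the tick is the mean of 3. In every gene shown the filled and open points do not overlap, and Alb and Per2 have the largest differences of means on their sides.

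Of the clock genes Per2 fell, and most of the other repressors of CLOCK and ARNTL had differences below 0 that were not called. PER2 is a core repressor of the loop. Per2 read 7.70, 8.41 and 7.80 at ZT21, against 9.28, 9.27 and 9.49 at ZT15. Replicate 2 of ZT21 was the highest of its group and was still below every ZT15 mouse. Per2 fell by 1.38 (SE 0.20, limma adjusted p = 0.0777), the largest difference among the lower calls, and its call also ended without ZT21 replicate 1. It was the only called gene of 21 on the clock list, beside 0.206% of all genes. At an unadjusted p under 0.05, 9 of the 21 were lower and 0 higher, beside 5.22% and 4.34% of all genes. With 1 of the 6 arrays left out 5 to 9 were lower, fewest without ZT15 replicate 3. The list's median over all arrays was −0.26 (−0.21 after quantile normalization). Bhlhe40, a repressor of E-box genes also called DEC1, read 9.53, 10.12 and 10.03 at ZT21, against 10.41, 10.60 and 10.73 at ZT15 (difference −0.68, SE 0.16, limma adjusted p = 0.261). Below it came Per1 at −0.57 (SE 0.26), Nr1d2, a nuclear receptor that represses Arntl, at −0.49 (SE 0.15), and Ciart, which also represses CLOCK and ARNTL, at −0.49 (SE 0.19). Per3, Cry1, Cry2 and Tef followed at −0.47, −0.45, −0.32 and −0.32. None of these passed the threshold. By the brightest probe set the activators differed by 0.21 for Arntl (SE 0.15), 0.17 for Clock and 0.06 for Npas2, none called, and the 3 other probe sets of Clock lay between −0.38 and −0.07.

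Homer1 and Camk1g, which act in synapses and in calcium signaling, fell. Homer1 encodes a scaffold of the postsynaptic density, and its short form, Homer1a, is an immediate early transcript that uncouples the long ones. Probe set 1436387_at read 10.35, 10.52 and 9.86 at ZT21, against 11.28, 11.43 and 11.52 at ZT15. The 3 ZT15 mice lay close together and above every ZT21 mouse, of which replicate 3 was the lowest. Homer1 fell by 1.17 (SE 0.17, limma adjusted p = 0.0725), and also lost the call without ZT21 replicate 1. Its 5 other tested probe sets were lower by 0.30 to 1.28 with none called, and the files do not say which form each detects. Camk1g, a calcium/calmodulin-dependent kinase of neurons, read 8.13, 8.20 and 8.06 at ZT21, against 8.92, 8.77 and 8.93 at ZT15. It fell by 0.74 (SE 0.09, limma adjusted p = 0.0413).

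The immediate early transcription factors themselves gave a different picture. Of 21 measured, 0 were called. Among the 21, 5 were lower and 0 higher at an unadjusted p under 0.05, beside 5.22% and 4.34% of all genes. With 1 of the 6 arrays left out 4 to 10 were lower, most without ZT15 replicate 1. The median was −0.37, which was −0.62 without ZT15 replicate 1 and turned to 0.02 without ZT15 replicate 3. Fosl2 and Klf10 had differences of −0.75 (SE 0.22) and −0.74 (SE 0.23), Egr3 and Ier5 of −0.45 and −0.44. The classic members spread widely between mice of 1 time, as seen in 3 genes chosen after their values were known. Fos read 9.75, 10.98 and 11.31 at ZT21, against 8.99, 10.97 and 12.25 at ZT15. Junb, its partner in AP-1, read 8.53, 9.31 and 9.51 at ZT21, against 7.29, 9.17 and 10.42 at ZT15. Npas4, an activity-dependent regulator of inhibitory synapses, read 8.54, 8.77 and 8.88 at ZT21, against 5.09, 8.30 and 8.56 at ZT15. In each, replicate 1 of ZT15 was the lowest and replicate 3 of ZT15 the highest of its group, and the groups overlapped. The SE of the difference was 0.82 for Fos, 0.76 for Junb and 0.85 for Npas4. Of 25 activity-regulated effectors, 0 were called by their brightest probe set. Among the 25, 6 were lower and 0 higher at an unadjusted p under 0.05, beside 5.22% and 4.34% of all genes. With 1 of the 6 arrays left out 3 to 8 were lower, fewest without ZT15 replicate 3, and the median of −0.22 became −0.07 without that array. Bdnf, the neurotrophin, differed by −0.60 (SE 0.16), Scg2, a secretogranin, by −0.39 (SE 0.11), and Nptx2, which clusters AMPA receptors, by −0.39 (SE 0.16).

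Among genes that damp signaling through MAP kinases and Ras, Spred1 fell. Spred1, an inhibitor of Ras activation, was called in 2 of its 7 tested probe sets. In 1423162_s_at it read 8.83, 8.88 and 9.21 at ZT21, against 10.04, 9.78 and 9.76 at ZT15 (difference −0.88, SE 0.16, limma adjusted p = 0.114), and in 1423161_s_at the difference was −0.82 (limma adjusted p = 0.139). The 5 others were not called, with differences from −0.59 to 0.03. Dusp4, a nuclear phosphatase of MAP kinases, read 6.66, 7.65 and 6.49 at ZT21, against 7.76, 8.12 and 7.97 at ZT15, without a call (difference −1.02, SE 0.25, limma adjusted p = 0.303). Of 21 such genes 16 had a negative difference, beside 5884 of 11639 over all genes, and 0 were called by the brightest probe set. Among the 21, 6 were lower and 0 higher at an unadjusted p under 0.05, beside 5.22% and 4.34% of all genes. The median of the 21, −0.12, was −0.02 without ZT15 replicate 3. Pde7a, which breaks down cAMP, fell by 0.87 in 1 of 7 tested probe sets (SE 0.16, limma adjusted p = 0.114), and the 6 others, not called, differed by −0.85 to −0.16, the brightest by −0.39.

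Tsc22d3 encodes GILZ, a leucine zipper protein induced by glucocorticoids. It read 8.84, 8.86 and 8.93 at ZT21, against 9.69, 9.68 and 9.77 at ZT15 (1420772_a_at), with little spread inside either group. Tsc22d3 fell by 0.84 (SE 0.14, limma adjusted p = 0.0991), and a second probe set, 1425281_a_at, by 0.71 (limma adjusted p = 0.198). Its other tested probe sets, 1425557_x_at and 1444365_at, differed by −0.48 and −0.03 and were not called. Fkbp5 and Sgk1, which glucocorticoids also induce, differed by −0.55 (SE 0.15) and −0.58 (SE 0.25) and were not called. Of 25 glucocorticoid-responsive genes 1 was called, beside 0.206% of all genes. Among the 25, 6 were lower and 0 higher at an unadjusted p under 0.05, beside 5.22% and 4.34% of all genes. The median of the list was −0.12 (−0.10 after quantile normalization). With 1 of the 6 arrays left out the median ran from −0.25 without ZT15 replicate 1 to −0.04 without ZT15 replicate 3, and 3 to 7 genes were lower, fewest without ZT15 replicate 3. Per1, Cdkn1a, Errfi1 and Pdk4 stand on this list and on at least 1 other.

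Hspb1, a small heat shock protein, read 7.55, 8.17 and 7.83 at ZT21, against 8.75, 8.80 and 9.67 at ZT15, and fell by 1.22 (SE 0.24, limma adjusted p = 0.157). Replicate 3 of ZT15 was the highest for it, as it was for Hspa1b, an inducible HSP70, which read 9.29, 9.08 and 9.09 at ZT21, against 9.65, 10.17 and 10.98 at ZT15 (difference −1.12, SE 0.31, limma adjusted p = 0.334). Hspa1b and Hspa1a are near-identical copies, so their probes may share signal. Of 29 cytosolic heat shock proteins 1 was called, beside 0.206% of all genes. Among the 29, 6 were lower and 0 higher at an unadjusted p under 0.05, beside 5.22% and 4.34% of all genes. The median of the list was −0.15 (−0.07 after quantile normalization and −0.07 without ZT15 replicate 3). The count of 6 was 3 without ZT15 replicate 3 and 10 without ZT15 replicate 1.

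The other called genes that fell belong to no single list. Osbpl3, an oxysterol-binding protein, read 7.88, 7.97 and 7.94 at ZT21, against 8.82, 8.71 and 8.77 at ZT15, a fall of 0.84 (SE 0.12, limma adjusted p = 0.0725). Kmt2a, the MLL1 methyltransferase of histone H3, read 8.97, 9.00 and 9.19 at ZT21, against 9.73, 9.70 and 9.65 at ZT15, a fall of 0.64 (SE 0.10, limma adjusted p = 0.0991). It was the only 1 of 48 histone modifying enzymes called, beside 0.206% of all genes. The median of these enzymes was −0.08 (−0.17 without ZT21 replicate 3 and −0.01 without ZT21 replicate 2). Cdyl2, a chromodomain protein, fell by 1.17 in a dim probe set, and its brighter one was not called (difference −0.51). The dim one passed the brightness filter through its ZT15 mean of 6.04, against 4.84 to 5.01 at the other times. Pfkfb3, which makes the activator of phosphofructokinase, fell by 0.73, Otub2, a deubiquitinase, by 0.70, Atg2b, a lipid transfer protein of autophagy, by 0.71, Fndc3b by 0.49 and 1810014B01Rik by 0.81. A second probe set differed by −0.02 for Atg2b and by −0.03 for 1810014B01Rik. Sfpq, a splicing factor, differed by −0.39 in 1423795_at (SE 0.09, limma adjusted p = 0.241), and of 53 splicing factors and RNA-binding proteins 0 were called. Among the 53, 9 were lower and 0 higher at an unadjusted p under 0.05, beside 5.22% and 4.34% of all genes. The count of 9 was 4 without ZT21 replicate 1 and 16 without ZT21 replicate 3. Mbp, which encodes myelin basic protein, differed by −0.40 in 1425264_s_at (SE 0.08, limma adjusted p = 0.201), while its 7 other probe sets lay between −0.33 and 0.04.

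In several other groups no gene was called by its brightest probe set. The respiratory chain and ATP synthase had 87 measured genes, 0 called and a median of 0.08, and cytosolic ribosomal proteins had 41, 0 called and a median of 0.05. Cholesterol synthesis genes split, with 3 higher and 2 lower of 24 at an unadjusted p under 0.05 and 0 called. Insig1, which holds the sterol sensor in the ER, differed by 0.44 (SE 0.13) and Fdps by 0.37 (SE 0.12). Potassium channels (57 genes), glutamate receptors and scaffolds (34), GABA genes (16), Rab GTPases (49) and proteins of synaptic vesicles (62) had 0 calls by the brightest probe set and medians from −0.06 to 0.01. Further genes that the study names were not called either: by the probe set with the smallest p, Phf21b differed by −0.58, Rasd2, a striatal GTPase, by −0.52, Sbk1, a kinase, by −0.36 and Cacng2, which encodes stargazin, by −0.17. On the other side Ccn3, a matricellular protein, differed by 0.55, Gpc6, a glypican, by 0.37, Sult4a1, a sulfotransferase of brain, by 0.33, Zfyve28 by 0.25, Rnd2 by 0.16 and Rbck1 by 0.12.

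**Figure D3:**
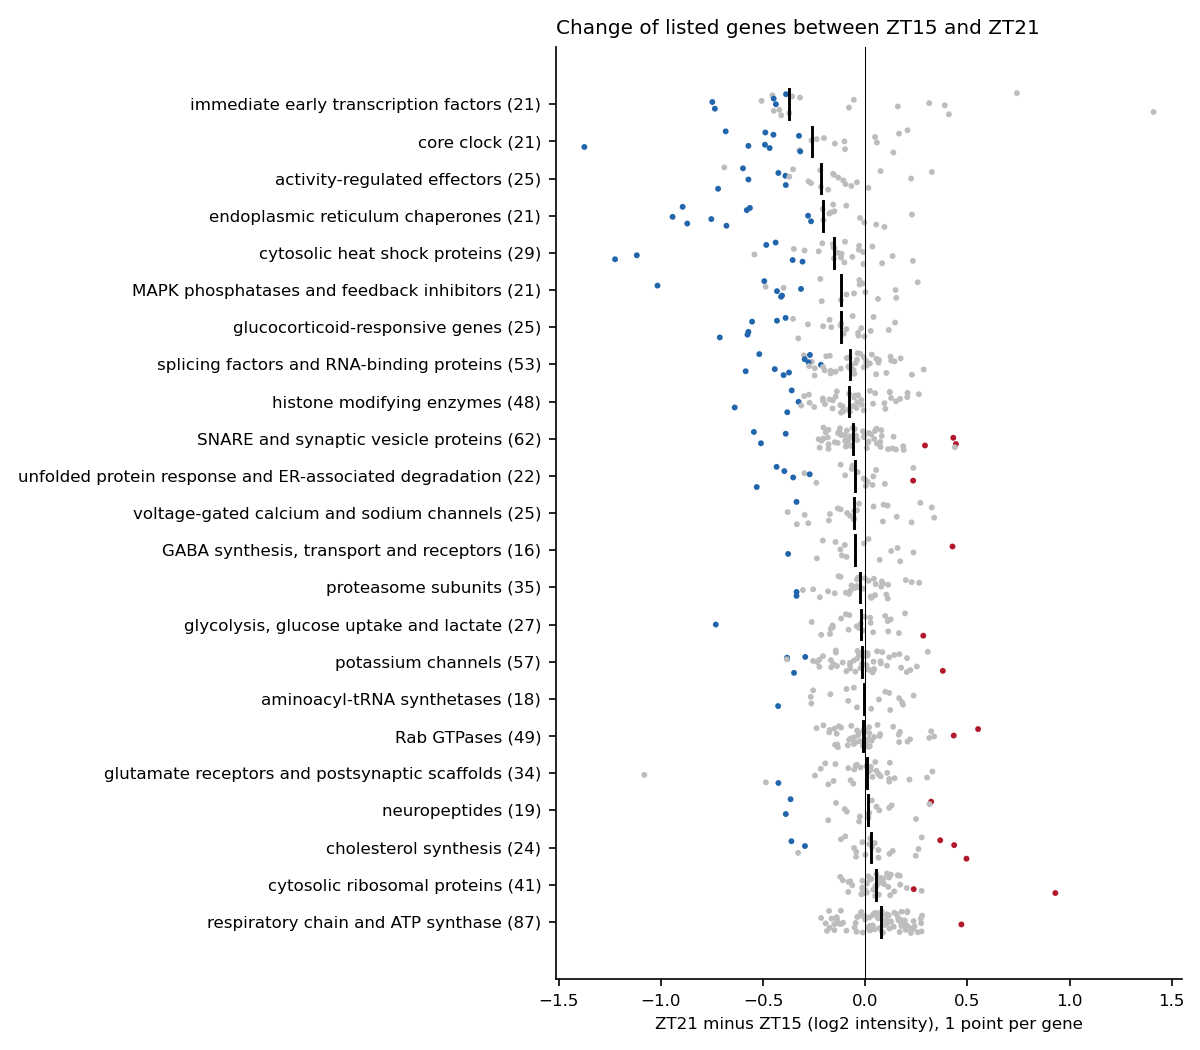
Each point is 1 gene by its brightest probe set, with the difference ZT21 minus ZT15 in log2 intensity across and the gene lists running down by their median (black tick, number of genes in brackets). Blue and red points had an unadjusted p under 0.05; the medians run from −0.37 for immediate early transcription factors to 0.08 for the respiratory chain.

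Of the genes that rose, the largest difference was that of Alb, the gene of serum albumin, which the liver makes and secretes. It read 7.44, 9.51 and 8.75 at ZT21, against 5.80, 6.13 and 6.14 at ZT15. All ZT21 mice were higher, but they differed widely among themselves while the ZT15 mice lay close together. Alb rose by 2.54 (SE 0.43, limma adjusted p = 0.0991), a ratio of 5.83, and the call ended without ZT15 replicate 1, without ZT15 replicate 2, without ZT21 replicate 2 or with no filter on brightness. The call of Alb also ended when only the 6 compared arrays were fitted and with the replicate number as a block. Serpina1c, a liver antitrypsin, read 5.98, 6.50 and 5.92 at ZT21, against 5.17, 5.24 and 4.70 at ZT15, and rose by 1.10 (SE 0.22, limma adjusted p = 0.183). Serpina1 genes are near-identical in mice, so its probes may take signal from the others.

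Other transcripts typical of the liver were looked at after this was seen. Apoa2 read 5.21, 6.93 and 5.62 at ZT21, against 4.53, 4.50 and 4.92 at ZT15, without a call (difference 1.27, SE 0.35, limma adjusted p = 0.336). Serpina1b, too dim to be tested, read 5.12, 6.55 and 5.80 at ZT21, against 3.52, 3.55 and 3.51 at ZT15. Fga, a fibrinogen chain, read 3.12, 4.40 and 3.59 at ZT21, against 2.47, 2.47 and 2.51 at ZT15. Fgg, another fibrinogen chain, read 3.38, 4.15 and 4.25 at ZT21, against 3.34, 3.13 and 3.48 at ZT15, with overlapping groups. Not all members separated the times. Apob had means of 2.71 at ZT21 and 2.65 at ZT15 in 1457554_at, and of 2.04 at both in 1455593_at. Hp read 3.27, 3.73 and 3.24 at ZT21, against 3.26, 3.28 and 3.27 at ZT15, and was highest in ZT9 replicate 1 at 4.07. Replicate 2 of ZT21 was the highest for Alb, Serpina1c, Apoa2, Serpina1b and Fga, whereas replicate 3 was the highest for Fgg and likewise for Fabp1, Fgb and Ambp. Over the 17 genes of the list on the array the summed intensity without Ttr was 545.3 to 1383 at ZT21 and 329.8 to 360.1 at ZT15, and it was 369.8 to 458.9 at ZT3 and 406.8 to 491.3 at ZT9. Of the 5 tested, Ttr among them, 2 rose, while 0.206% of all genes were called. Higher at an unadjusted p under 0.05 were 4 of the 5, beside 4.34% of all genes. These counts include Alb and Serpina1c, which prompted the list. They also include Apoa2, which passed the brightness filter through its ZT21 mean of 5.92, against 4.65 to 5.17 at the other times. The counts therefore describe the list and cannot be weighed against the shares of all genes. Where this signal came from was not tested.

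**Figure D4:**
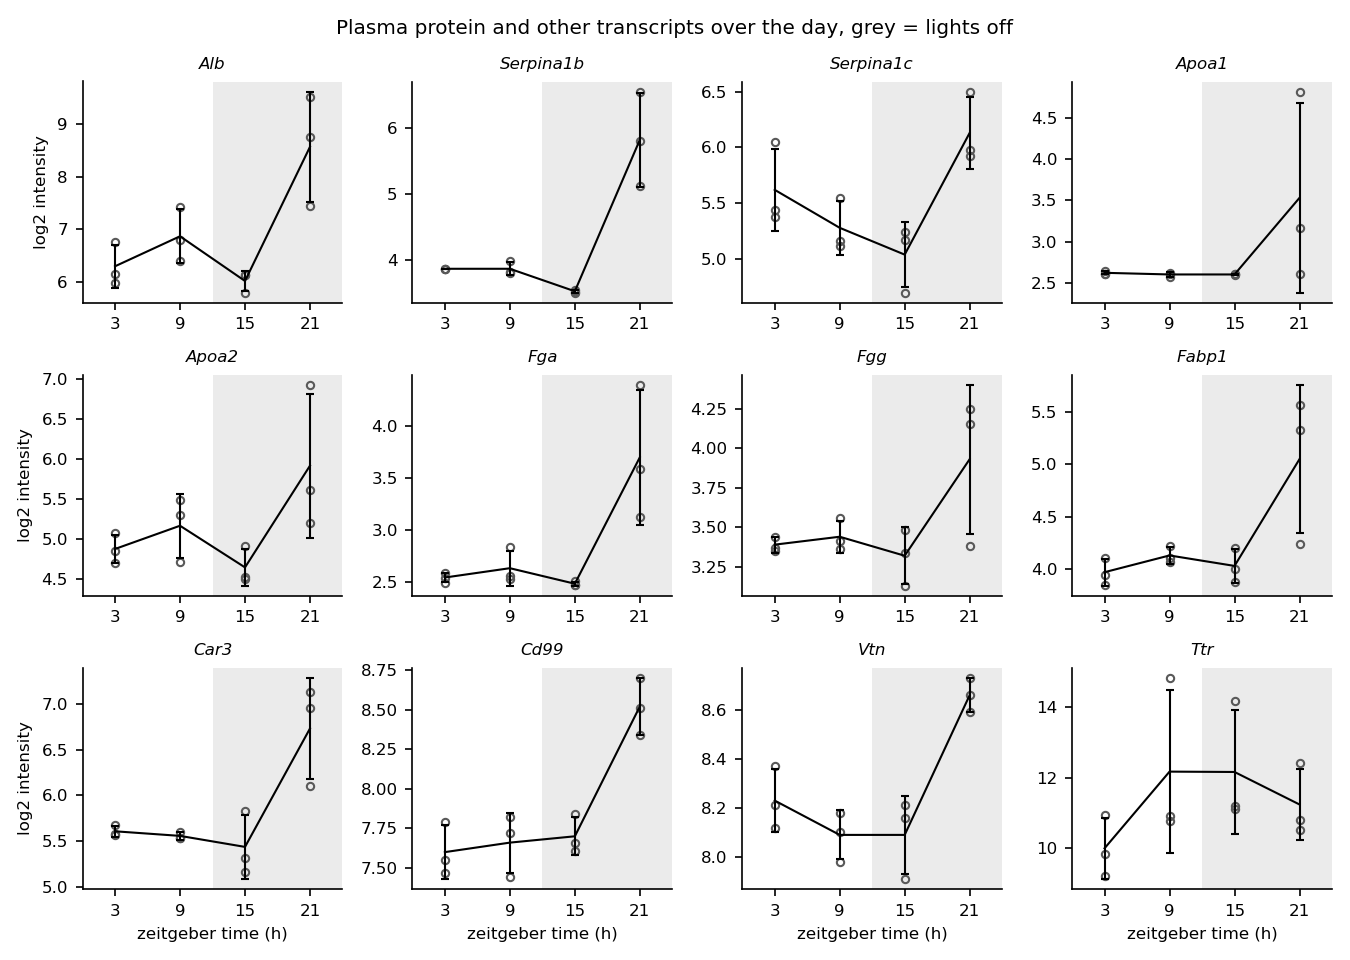
Log2 intensity of 12 transcripts at zeitgeber times 3, 9, 15 and 21 h, with 1 open point per mouse, a line through the means and SD bars (n = 3), and grey for darkness. Alb, Serpina1b and Fga are highest in the ZT21 mice, whereas Ttr is highest in ZT15 replicate 1 and in 1 ZT9 mouse.

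Car3, a carbonic anhydrase abundant in fat, muscle and liver, read 6.10, 7.13 and 6.95 at ZT21, against 5.32, 5.83 and 5.17 at ZT15, and rose by 1.29 (SE 0.23, limma adjusted p = 0.114). Cldn5, the tight junction protein of the blood-brain barrier, read 9.28, 9.27 and 9.43 at ZT21, against 8.18, 8.47 and 8.54 at ZT15. It rose by 0.93 (SE 0.16, limma adjusted p = 0.106), a ratio of 1.91. It was the only called gene of 8 measured for endothelium: Itm2a, Esam and Tek had differences of 0.28, 0.11 and 0.16, and Flt1 and Vwf of −0.32 and −0.50, none called. Vtn, vitronectin, a plasma and matrix protein, rose by 0.57 (SE 0.11, limma adjusted p = 0.141), and Ddr1, a collagen receptor kinase, by 0.53 in 1 of 7 tested probe sets (SE 0.09, limma adjusted p = 0.114). The brighter probe set of Vtn, 1420484_a_at, differed by 0.36 without a call. The 6 others of Ddr1 were not called, with 0.45 for the brightest and −0.03 and 0.03 for a pair of them. In bulk tissue, fewer cells of a type and less RNA per cell cannot be told apart.

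Markers of other cells were read beside these genes. All 10 meningeal and fibroblast markers measured had differences above 0 by their brightest probe set, as 5755 of 11639 genes did, with a median of 0.25. A second tested probe set differed by −0.45 for Col1a1, −0.06 for Ogn, 0.06 for Col1a2 and 0.04 for Ptgds, none called. Among the 10, 0 were called and 2 were higher at an unadjusted p under 0.05, beside 4.34% of all genes. Col3a1, a fibrillar collagen, read 5.49, 6.28 and 5.67 at ZT21, against 5.14, 5.20 and 5.21 at ZT15, without a call (limma adjusted p = 0.329). The summed intensity of that list was 9629 to 11710 at ZT21 and 9560 to 10950 at ZT15, with overlapping groups. Ttr, the transthyretin gene of the choroid plexus, read 10.53, 10.79 and 12.40 at ZT21, against 14.18, 11.10 and 11.20 at ZT15, with replicate 1 of ZT15 far above the others. The part of these tissues in the results was not tested. The call of Cldn5 also ended without ZT15 replicate 1, and those of Vtn and Ddr1 did so too.

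Neuronal genes were also among those that rose. Cbln1, a secreted organizer of synapses, read 8.08, 8.08 and 8.01 at ZT21, against 7.52, 6.81 and 7.10 at ZT15, and rose by 0.91 (SE 0.17, limma adjusted p = 0.126). Amigo1, an adhesion molecule that accompanies Kv2.1 channels, read 7.46, 7.21 and 7.32 at ZT21, against 6.76, 6.73 and 6.41 at ZT15, and rose by 0.70 (SE 0.11, limma adjusted p = 0.0991). Carf, a calcium-responsive transcription factor, rose by 0.72, Kif16b, an endosomal kinesin, by 0.61, and Nsmf, which carries signals of NMDA receptors to the nucleus, by 0.51. A second tested probe set of Kif16b, 1429062_at, differed by 0.17 without a call and with overlapping groups. The probe set of Nsmf that was called was the dimmest of 3 tested, and the others differed by 0.21 and 0.23 without a call. Cd99, a cell adhesion glycoprotein, rose by 0.81 in each of 2 probe sets, and another, not called, differed by 0.69. Zfp574, Flywch2 and BC004004 rose by 0.47, 0.49 and 0.60. The call of BC004004 came from the dimmest of 5 probe sets, and the others differed by 0.07 to 0.31 without a call, as did the brighter one of Zfp574 (0.43, with overlapping groups). Amigo1 had 2 further probe sets, which differed by 0.20 and 0.21 without a call. The 3 calls without a single symbol were also higher at ZT21, 1430013_at and 1434110_x_at by 1.20 each and 1443707_at by 0.56.

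Where ZT21 and ZT15 stood in the day was described from the remaining arrays. Of the 26 lower calls, 24 had their highest mean at ZT15, and 15 had the lowest at ZT21 and 9 at ZT9. Of the 19 higher calls, 18 had their highest mean at ZT21 and 13 the lowest at ZT15. The ZT15 and ZT21 arrays chose these probe sets, so this order is a description. Over the 26 lower calls the median deviation from the 12-array mean was −0.09 at ZT3, −0.18 at ZT9, 0.53 at ZT15 and −0.30 at ZT21, and over the 19 higher calls it was −0.06, −0.07, −0.34 and 0.39. Hspa5 was at 11.21, 10.71, 11.84 and 10.71 at these times. Camk1g, at 7.86, 7.83, 8.87 and 8.13, was above both light-phase means at ZT21. The neighbouring intervals share arrays with the comparison: Hspa5 differed by 1.14 between ZT15 and ZT9 (limma adjusted p = 0.000461) and by 0.50 between ZT3 and ZT21 (limma adjusted p = 0.101), and Homer1 by 3.37 (limma adjusted p = 3.88e-06) and by 0.32 (limma adjusted p = 0.311).

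**Figure D5:**
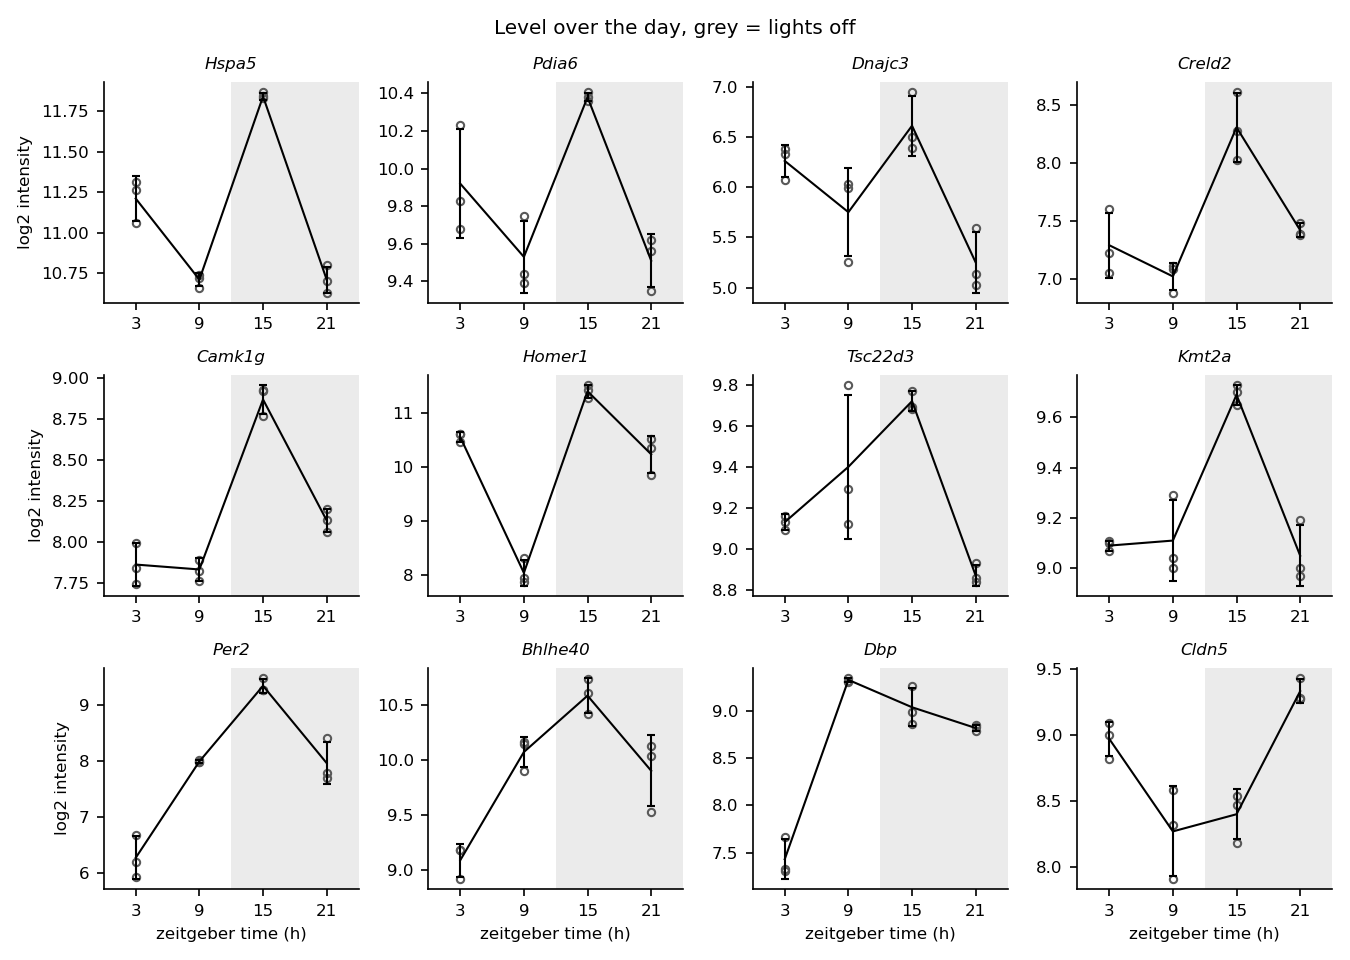
Log2 intensity of 12 genes at zeitgeber times 3, 9, 15 and 21 h, with 1 open point per mouse, a line through the means and SD bars (n = 3), and grey for darkness. Hspa5, Camk1g, Homer1 and Kmt2a are highest at ZT15, and Dbp is lowest at ZT3 and differs by −0.22 between ZT21 and ZT15.

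The change within the dark phase was then set against the change within the light phase, ZT9 minus ZT3, which covers as many hours and shares no array with it. The difference of the 2 changes passed an adjusted p of 0.20 for 17 probe sets (0.0706%), 14 below 0 and 3 above, with 6 at an adjusted p of 0.05. Its median over all probe sets was −0.10, which centring moved to 0.02 and quantile normalization to 0.005. The clock genes led. Per2 fell by 1.38 in the dark and was higher by 1.73 at ZT9 than at ZT3, a difference of −3.10 (SE 0.28, limma adjusted p = 0.00194). Dbp, a PAR leucine zipper factor under direct clock control, changed by −0.22 in the dark and 1.89 in the light (difference −2.11, SE 0.17, limma adjusted p = 0.00123). Ciart gave −2.65 (SE 0.27, limma adjusted p = 0.00292), Bhlhe40 −1.66 (SE 0.22, limma adjusted p = 0.0415) and Per1 −2.16 (SE 0.36, limma adjusted p = 0.155). Cldn5 went the other way, with 0.93 in the dark, −0.70 in the light and a difference of 1.63 (SE 0.22, limma adjusted p = 0.0462). Homer1 was lower at the later time in both phases, by 1.17 in the dark and by 2.52 in the light, and the difference of the 2 was 1.35 (SE 0.23, limma adjusted p = 0.159). For Hspa5, −1.13 in the dark and −0.50 in the light, the difference of −0.63 (SE 0.13) was not called (limma adjusted p = 0.295). Among ER genes none of the called ones passed this contrast, so a difference between the phases was not shown for them. The count of 17 was 11 without ZT15 replicate 2, 7 without ZT21 replicate 1, 10 without ZT21 replicate 2, 3250 without ZT21 replicate 3, 5 without ZT3 replicate 1, 9 without ZT3 replicate 2, 7 without ZT3 replicate 3, 11 without ZT9 replicate 2 and 46 without ZT9 replicate 3.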

How the data were processed

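Total RNA of the prefrontal cortex of each mouse was hybridised to 1 Affymetrix Mouse430_v2 array. The deposited values are intensity per probe set, which the authors obtained with GCRMA in GeneSpring and gave on a linear scale. The authors' detection calls from MAS5 are not part of the table, so a mean log2 intensity of at least 5 stood in for that filter. The 64 control rows were left out. No value lay below 1 (lowest 1.34). GCRMA normalizes arrays to each other, so a change shared by most genes may be removed in part. Differences between arrays remained, as the median log2 over tested probe sets ran from 7.756 in ZT3 replicate 3 to 7.921 in ZT21 replicate 3. The number of arrays limits the precision (median SE 0.14 log2).

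Group means of all 12 arrays were fitted with limma 3.58.1 in R 4.3.3 (lmFit, eBayes, two-sided moderated statistics without covariates), and every adjusted p is from it. Each replicate is another mouse, and a batch or a scan date was not given in the sources used here. Checks on simulated data were run first. Of 45037 probe sets 34945 carry 1 gene symbol, 932 several and 9160 none. Genes were named by fixed rules: in each direction the 15 with 1 symbol and the largest called difference, 8 clock genes and up to 5 of each other list by p, those the study names, and the 5 leading ones of the phase contrast. Other called genes, the liver list, Fos, Junb, Npas4 and further list members given by value were added after their values were seen. Members and lists were chosen with earlier results of these data known. Alternatives covered scaling, filters, offset, array weights, prior, arrays used, a replicate block and leaving out each array. Python 3.11.15, pandas 2.3.3 and matplotlib 3.10.9 made the tables and figures.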

Additional observations from a re-analysis of the deposited data

Results flagged for a closer look

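Probe sets were marked where the change within the dark phase, ZT21 minus ZT15, differed from the change within the light phase, ZT9 minus ZT3, at a limma adjusted p under 0.20 for the difference itself. Beside the clock genes, with −2.11 and −2.40 for the 2 probe sets of Dbp, −3.10 for Per2, −2.65 for Ciart, −1.66 for Bhlhe40 and −2.16 for Per1, the difference was below 0 for 8 more. These were Tspan4, a tetraspanin, at −1.56, Wdr6 at −1.13, Gpt2, an alanine aminotransferase of mitochondria, at −1.17, Coq10b, which binds ubiquinone, at −1.26, Ccnd2, a D-type cyclin, at −1.29, Crnkl1, a spliceosome component, at −0.92, Tsc22d3 at −1.12, and 1460113_at, which carries no single symbol, at −1.43. It was above 0 for Cldn5 at 1.63, Homer1 at 1.35 and the gene model Gm21953 at 1.95.

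The light phase carried most of the difference for some of these. Wdr6 read 10.40, 10.46 and 10.71 at ZT21, against 10.58, 10.56 and 10.42 at ZT15, with overlapping groups, and was higher by 1.13 at ZT9 than at ZT3. Tsc22d3 and Per2 were called within the dark phase as well, and so were Homer1 and Cldn5. No set rule for single outlying mice was applied to these groups of 3.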

How the results depend on the processing

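For ZT21 minus ZT15, against 45 calls, array weights gave 7571, median centring 135, quantile normalization 171, the 6 arrays alone 3 and the replicate number as a block 6. For the difference between phases, against 17, array weights gave 9244, a mean log2 of at least 7 gave 41, centring 26, no filter 7 and the replicate block 7. Leaving out 1 array at a time gave 4 to 1933 calls and 5 to 3250 calls for these comparisons. Offset, prior and filter moved the first count by less than 1.5 times, but with no filter, at 35 calls, 20 of the 45 were lost, among them Alb, Car3, Serpina1c, Cldn5, Cbln1, Hspb1, Creld2, P4ha1, Pde7a and both called probe sets of Spred1. At a mean log2 of at least 7, 13 of the 45 were not tested and the other 32 were called. The cause of these changes in the counts was not tested, and the fits that left arrays out also held fewer of them. The 6 arrays alone called Hspa5, Osbpl3 and Tsc22d3. The labels give no sign that numbers pair the mice, and the deviations of same-numbered ZT21 and ZT15 mice correlated at −0.08, 0.36 and 0.12, so the block rests on a shared number only. Of the single genes and settings compared, 2956 kept their side of the threshold, 207 passed it anew, 320 lost it and 0 changed direction. Dim probe sets are limited by background, since intensities near the floor carry no order.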

Other observations

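Several further values belong to probe sets that were either untested or not called. Apoa1, which encodes the main protein of HDL and was too dim to be tested, read 2.61, 4.82 and 3.16 at ZT21 in 1419233_x_at, against 2.59, 2.61 and 2.60 at ZT15, so that replicate 2 of ZT21 stood above the rest, as it did for Alb. The largest difference among the tested probe sets without a single gene symbol was not called: 1420465_s_at read 10.03, 11.20 and 12.09 at ZT21, against 4.55, 7.72 and 10.30 at ZT15 (difference 3.58, SE 1.20, limma adjusted p = 0.410). A further one, 1426154_s_at, read 5.39, 7.21 and 8.26 at ZT21, against 4.48, 4.77 and 4.92 at ZT15 (difference 2.23, SE 0.69, limma adjusted p = 0.367). Its groups did not overlap, and its spread within ZT21 was wider than within ZT15. These genes and probe sets were chosen after their values were seen.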
